A study of Mus musculus with 2 samples.

Results

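Of the 32285 genes in both count matrices, 9 are described here: Cyp26a1, Cyp26b1, Dhrs3, Rdh10, Crabp2, Stra8, Tgm2, Cd38 and Asb2. They were taken by gene symbol, with no threshold on their values but with earlier results of these data known. Some of them make, hold or destroy retinoic acid, and the others are genes that the retinoic acid receptors are known to switch on. The RNA of single promyelocytes was sequenced after capture in droplets. The cells were transformed by PLZF/RARA, an oncogenic fusion of a zinc finger repressor with retinoic acid receptor alpha. Both groups carried this fusion. The cells came from leukemic mouse bone marrow and were sorted as late promyelocytes, negative for Cd34 and positive for Gr1, FcγR, C-Kit and Cd45.2. Mice of the retinoic acid group received 0.8 to 1 mg of retinoic acid by intraperitoneal injection, and those of the vehicle group received corn oil with 10% DMSO by the same route. Treatment lasted 7 days in cohorts of 3 to 5 mice. The labels give neither the strain, the age nor the number of mice behind a library. Each group held 1 library, so nothing here was checked against replicates, and each ratio also holds whatever set the mice, sorts or preparations apart.

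Retinoic acid is made from retinol in a pair of oxidation steps, of which the first, from retinol to retinal, is reversible. RDH10 carries out that first step and DHRS3 the reverse reaction, so their balance sets how much retinal is left for the second step. CRABP2 carries retinoic acid to its nuclear receptors, and enzymes of the CYP26 family hydroxylate it for disposal. The receptors bind DNA as pairs, on repeated hexamers called retinoic acid response elements, and several enzymes that lower retinoic acid are themselves receptor targets, which closes a feedback loop. In myeloid leukemia cells driven by a RARA fusion, retinoic acid can release a block in maturation toward granulocytes.

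Promoter windows reaching from 250 bases before to 50 bases after a RefSeq start site (GRCm38.p6) were given for 6 of the 9 genes, 9 windows in all. Rdh10, Crabp2 and Tgm2 had none. The windows were searched on both strands for the hexamers AGGTCA or AGTTCA or GGGTCA or GGTTCA, and for direct repeats of any 2 of them with 5 bases between, the best known spacing of a retinoic acid response element. Such a repeat stood in 32 of 32851 windows (0.0974%). The Cyp26a1 window, the one member window that held it, is shown beside that of Stra8, because these genes went opposite ways under retinoic acid. Both are written 5′ to 3′ on the plus strand, with matches to a hexamer on either strand in capitals.
Cyp26a1, chr19:37697558-37697857: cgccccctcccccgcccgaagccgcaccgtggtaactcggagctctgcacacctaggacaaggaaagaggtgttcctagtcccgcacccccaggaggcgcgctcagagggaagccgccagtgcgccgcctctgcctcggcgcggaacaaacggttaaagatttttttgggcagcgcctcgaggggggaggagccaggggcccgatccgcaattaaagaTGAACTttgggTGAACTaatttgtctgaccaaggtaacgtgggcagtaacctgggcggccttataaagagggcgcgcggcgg
Stra8, chr6:34920698-34920997: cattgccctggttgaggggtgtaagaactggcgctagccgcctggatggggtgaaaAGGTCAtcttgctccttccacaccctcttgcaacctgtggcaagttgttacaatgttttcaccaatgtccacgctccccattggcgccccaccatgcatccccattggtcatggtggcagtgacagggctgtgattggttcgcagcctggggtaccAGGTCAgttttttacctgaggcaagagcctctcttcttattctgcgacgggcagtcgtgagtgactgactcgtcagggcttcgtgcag
The Cyp26a1 repeat reads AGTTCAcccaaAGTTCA on the minus strand and lies 32 to 16 bases before the RefSeq start site, on chromosome 19 from 37697776 to 37697792. Gene coordinates printed further below are from GENCODE, and their starts differ from the RefSeq ones. The GENCODE start of Cyp26a1, 37697798, lies inside its window, and that of Stra8, 34920163, lies before its window. The Stra8 window holds single hexamers and no repeat, and a single hexamer is common, being found in 43.7% of all windows. None of the 3 Dhrs3 windows held a repeat of that spacing. A match is a description of letters in these windows, not a measured binding site.

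Barcodes were kept with at least 1000 UMIs (unique molecular identifiers, each marking 1 captured RNA molecule), at least 500 genes and at most 10% mitochondrial UMIs. This left 5476 vehicle cells with 99107718 UMIs and 7140 retinoic acid cells with 110088247 UMIs. Levels are given as CPM, the counts of a gene per 1000000 counts of all genes, and a single UMI is worth 0.0101 CPM with vehicle and 0.00908 CPM with retinoic acid. The median depth was 16749.5 UMIs in vehicle and 14604 UMIs in retinoic acid cells. All 8 promyelocyte markers were detected in both libraries, summing to 8410 and 19068 CPM. Mpo, the myeloperoxidase of primary granules, stood at 311 CPM with vehicle but at 0.50 CPM with retinoic acid. Other markers of that list were higher with retinoic acid. Elane went from 62.8 to 7663 CPM, Prtn3 from 246 to 2819, Ms4a3 from 850 to 2087 and Gfi1 from 75.4 to 144. Ctsg (6444 and 5979 CPM), Kit (19.3 and 16.7) and Cebpe (401 and 359) were slightly lower. The 8 mast cell or basophil markers summed to 806 and 68.1 CPM, the 5 eosinophil markers to 122 and 33.2 CPM, and the 8 monocyte or macrophage markers to 80.9 and 9.74 CPM. Most of that last difference was Adgre1, at 73.7 and 5.15 CPM. Ccr2 was lower as well, at 6.05 and 3.52 CPM. F13a1 was level at 0.807 and 0.818 CPM, and the rest of that list stood below F13a1 in both libraries. The libraries shared 11 cell barcodes. All intervals given are 95% intervals that cover counting error only. The sort held no cell type known to lack these genes, so no share of positive cells due to free RNA could be set beside theirs.

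Cyp26a1 and Dhrs3, both of which lower the supply of retinoic acid, were the members with clearly higher counts under retinoic acid, while Stra8 was lower and Rdh10 lay close to the same level in both libraries. Of the 9 genes, 6 had at least 10 counts over both libraries. Of these 6, Cyp26a1, Dhrs3 and Cd38 were at least 2-fold higher under retinoic acid, against 5.72% of the 14561 genes with that many counts. Stra8 and Asb2 were at least 2-fold lower, against 15.0% of those genes. Cd38 and Asb2 had counts in 1 library alone, so the count minimum fixed their calls and they support no count. With at least 100 counts, 2 members were higher, against 4.30% of genes, and 1 was lower, against 10.2%. The median log2 ratio over the 14561 genes with at least 10 counts was -0.08.

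Cyp26a1 (ENSMUSG00000024987, chr19:37697798-37701536), the hydroxylase that starts the clearance of retinoic acid, had 8 vehicle counts and 253 retinoic acid counts. These are 0.0807 CPM (0.0348 to 0.159) and 2.30 CPM (2.02 to 2.60). The gene was nearly silent in the vehicle, with 8 positive cells of 1 UMI each. Under retinoic acid 200 cells were positive, 165 of them with 1 UMI and 35 with more, up to 7 in a cell. The log2 ratio was 4.75 (3.83 to 6.06), a 26.8-fold difference, and 56 of the 14561 genes had a higher ratio. Even so, Cyp26a1 remained a rare transcript. With every cell thinned to 5000 UMIs, it was found in 0.0568% (0.0117 to 0.166) of the cells given vehicle and in 1.11% (0.874 to 1.39) of those given retinoic acid. Before thinning these shares were 0.146% and 2.80%. Its relative Cyp26b1 (chr6:84571414-84593908), which carries out the same reaction, had 7 vehicle counts and 1 retinoic acid count, too few to compare.

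Dhrs3 (ENSMUSG00000066026, chr4:144892827-144928209), the retinal reductase, had 195 vehicle counts and 2017 retinoic acid counts. These are 1.97 CPM (1.70 to 2.26) and 18.3 CPM (17.5 to 19.1). The number of positive cells went from 152 to 1475, of which 393 carried at least 2 UMIs under retinoic acid and 24 did in the vehicle. The log2 ratio was 3.22 (3.01 to 3.44), a 9.29-fold difference exceeded by 138 of the 14561 genes. At 5000 UMIs per cell, Dhrs3 was found in 1.15% (0.885 to 1.48) of the vehicle cells and 9.60% (8.90 to 10.3) of the treated cells, so most treated cells still gave no Dhrs3 UMI at that depth. Before thinning these shares were 2.78% and 20.7%. Rdh10 (ENSMUSG00000025921, chr1:16105774-16133734), the enzyme of the opposing reaction, had 246 counts in 238 vehicle cells and 248 counts in 237 retinoic acid cells. Its levels were 2.48 CPM (2.18 to 2.81) and 2.25 CPM (1.98 to 2.55). The log2 ratio of -0.14 (-0.40 to 0.12) spans no difference.

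Crabp2 (chr3:87948666-87953376), the carrier protein, had 2 vehicle counts and 1 retinoic acid count. Tgm2 (chr2:158116402-158146436), a protein cross-linking enzyme known as an early retinoic acid target in promyelocytic leukemia cells, had 3 and 1. Neither gene was measurable at this depth, where a sum of 0 allows up to 3 counts, or 0.0303 CPM with vehicle and 0.0273 CPM with retinoic acid. Cd38 (ENSMUSG00000029084, chr5:43868553-43912375), a surface enzyme that consumes NAD, had 0 vehicle counts and 12 retinoic acid counts, each in a cell of its own. Taken against the 3 counts that a vehicle sum of 0 allows, Cd38 was 3.60-fold higher under retinoic acid, which is not a lower limit. The exact interval of its log2 ratio, which also takes in the error of the 12 counts, reaches down to 1.32. At 0.109 CPM (0.0563 to 0.190) Cd38 was found in 12 of 7140 treated cells.

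Stra8 (ENSMUSG00000029848, chr6:34920163-34939344), which germ cells need to enter meiosis and which is named for its response to retinoic acid, went the other way. It had 1319 vehicle counts and 299 retinoic acid counts, or 13.3 CPM (12.6 to 14.05) and 2.72 CPM (2.42 to 3.04). The log2 ratio was -2.29 (-2.48 to -2.11), and 835 of the 14561 genes had a lower one. At 5000 UMIs per cell it was found in 6.61% (5.95 to 7.31) of the vehicle cells and 1.44% (1.17 to 1.76) of the treated cells, against 15.4% and 3.42% before thinning. Cells with at least 2 Stra8 UMIs numbered 271 in the vehicle and 38 under retinoic acid. Asb2 (ENSMUSG00000021200, chr12:103321142-103356001), the substrate-binding part of a ubiquitin ligase that acts on filamins, had 21 vehicle counts in 13 cells and 0 retinoic acid counts. Taken against the 3 counts that a sum of 0 allows, Asb2 was 7.78-fold lower under retinoic acid, which is not a lower limit of the difference. The exact interval of its log2 ratio reaches up to -2.53. A single vehicle cell held 6 of the Asb2 counts, and without that cell 15 were left.

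**Figure D1:**
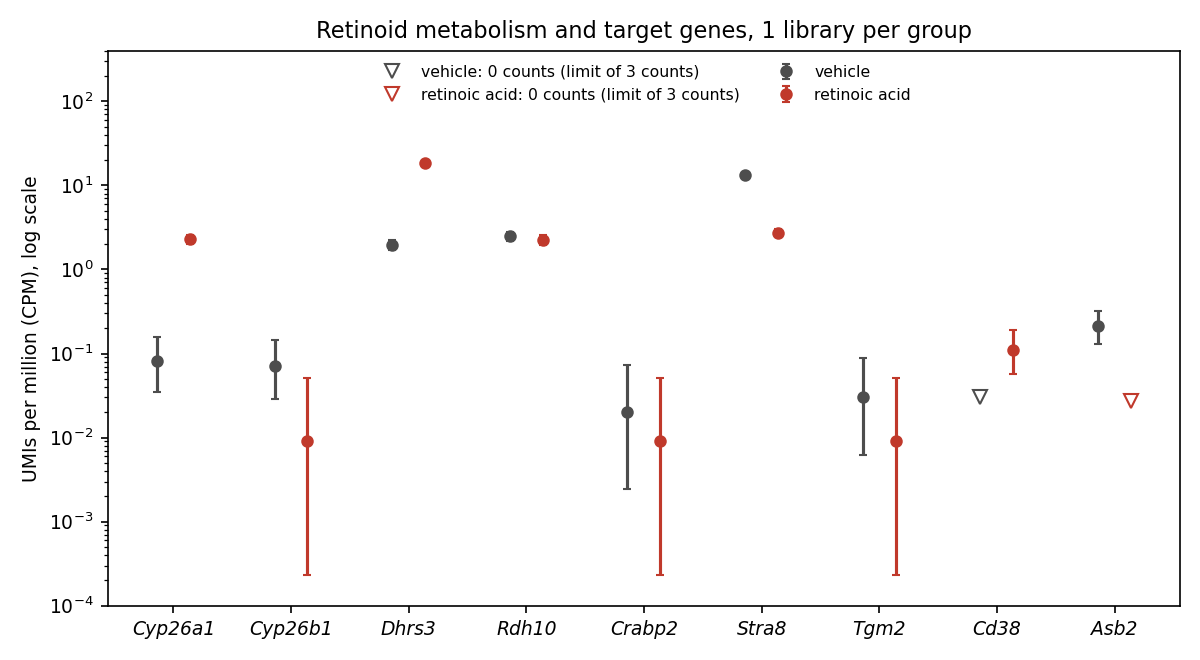
CPM of the 9 genes in the vehicle and retinoic acid libraries, on a log axis, with exact Poisson intervals for counting error. Cyp26a1 and Dhrs3 are higher and Stra8 is lower under retinoic acid with intervals that do not overlap, while those of Rdh10 do.

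The cells that carried the induced genes were located in the retinoic acid library with 6659 cells of at least 5000 UMIs. Each was ranked by its granule share, the percent of its UMIs, after thinning, in the secondary granule genes Camp, Ngp, Ltf and Lcn2, which neutrophil precursors switch on past the promyelocyte stage. The ranking was divided into 4 granule classes of about equal size, numbered 1 to 4 upward, with limits at 0.60%, 1.82% and 6.14%. Class 1 is called granule-poor and class 4 granule-rich. These are ranges of a continuous measure and not cell types, and 297, 303 and 245 cells lay within 10% of the 3 limits. Median depth was 17992 UMIs in granule-poor and 10770 UMIs in granule-rich cells, and G1 cells made up 14.6% and 38.6% of them.

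Dhrs3 followed the granule share step by step. Over classes 1 to 4 it stood at 5.44, 8.62, 16.1 and 51.9 CPM. At 5000 UMIs per cell it was found in 2.59% (1.88 to 3.47) of granule-poor and 22.5% (20.5 to 24.6) of granule-rich cells. Granule-rich cells, 25.1% of all cells with 18.0% of the UMIs, thus held 1014 of 1891 Dhrs3 counts (53.6%). The log2 ratio of granule-rich over granule-poor cells was 3.25 (3.02 to 3.49). Of 10747 genes with at least 100 counts in these cells, 4.60% were at least 2-fold higher and 11.8% at least 2-fold lower in granule-rich cells, with a median log2 ratio of -0.36.

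Cyp26a1 also stood highest in granule-rich cells, with a smaller difference. It had 37, 51, 54 and 102 counts in classes 1 to 4, or 1.17, 1.74, 1.92 and 5.22 CPM. The log2 ratio of granule-rich over granule-poor cells was 2.14 (1.60 to 2.74), and granule-rich cells held 41.8% of its 244 counts. It was nonetheless found in all 4 classes at levels above the 0.0807 CPM of the vehicle. Granule-poor cells alone exceeded the whole vehicle library by 3.96 (2.86 to 5.45) on the log2 scale for Cyp26a1 and by 1.51 (1.21 to 1.82) for Dhrs3. The 12 Cd38 counts were split 2, 3, 3 and 4 over classes 1 to 4, too few to place.

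The residual Stra8 transcripts were in granule-rich cells as well. Its level was 1.42, 1.5, 1.42 and 7.26 CPM over classes 1 to 4, flat until the last. Granule-rich cells held 142 of its 271 counts (52.4%), for a log2 ratio over granule-poor cells of 2.34 (1.86 to 2.87). Rdh10 showed no such order, at 2.63, 2.28, 1.85 and 2.30 CPM, and its log2 ratio was -0.18 (-0.75 to 0.35).

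**Figure D2:**
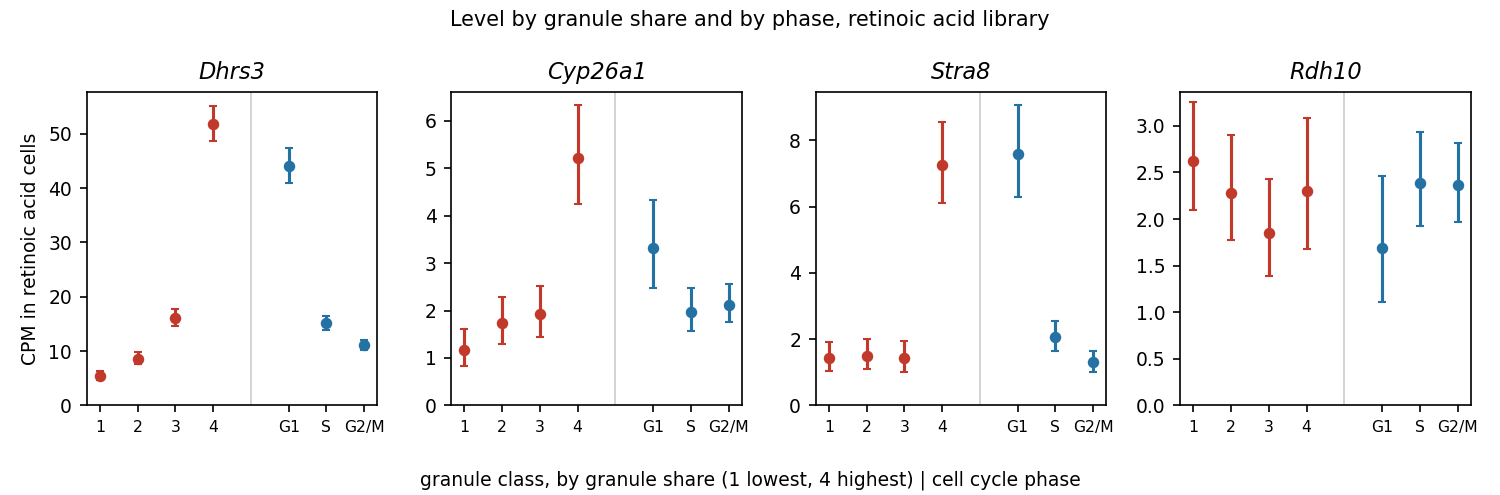
CPM of Dhrs3, Cyp26a1, Stra8 and Rdh10 in the 4 granule classes and 3 cell cycle phases of the retinoic acid library, with exact Poisson intervals for counting error. Dhrs3 climbs from 5.44 in class 1 to 51.9 in class 4, Cyp26a1 and Stra8 stand apart in class 4, and the Rdh10 intervals overlap throughout.

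Cell cycle phases were called from S and G2/M genes, giving 1446 G1, 2517 S and 2696 G2/M cells. The 5213 S and G2/M cells are called cycling, and 678 cells lay within 0.05 of the score that divides them from G1. Dhrs3 stood at 44.1 CPM in G1, 15.1 in S and 11.2 in G2/M, so it was highest in the cells called G1. Its log2 ratio of cycling over G1 cells was -1.78 (-1.92 to -1.65). Because cycling cells were 78.3% of the library, they still held 62.8% of the Dhrs3 counts. Of the 10747 genes, 2.90% were at least 2-fold lower and 7.07% at least 2-fold higher in cycling cells.

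Cyp26a1 stood at 3.32, 1.98 and 2.12 CPM in G1, S and G2/M, with a cycling over G1 log2 ratio of -0.70 (-1.13 to -0.22). That direction was not settled, since it became 0.16 when cycling cells were those in the upper 50% by S and G2/M gene share. Cycling cells held 78.3% of Cyp26a1 counts, equal to their share of cells but below their 85.3% of the UMIs, and 10 of the 12 Cd38 counts. Stra8 stood at 7.58, 2.06 and 1.30 CPM in G1, S and G2/M, and Rdh10 at 1.69, 2.39 and 2.36 CPM. Stra8 was thus highest in G1, with a log2 ratio of -2.23 (-2.58 to -1.87), and the Rdh10 ratio of 0.47 (-0.09 to 1.12) spans no difference. In vehicle cells the cycling over G1 log2 ratio was -2.25 (-2.77 to -1.78) for Dhrs3, -2.30 (-2.49 to -2.12) for Stra8 and 0.86 (0.44 to 1.31) for Rdh10.

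Granule class and phase each went with the Dhrs3 level when the other was held. Class 4 has no upper limit, so the share itself was not held there. Its median share was 14.3% in G1, 10.8% in S and 9.5% in G2/M cells. Within G1 cells Dhrs3 stood at 12.1, 15.4, 28.5 and 88.9 CPM over classes 1 to 4, within S cells at 5.27, 10.5, 16.4 and 35.5 CPM, and within G2/M cells at 4.27, 5.56, 13.4 and 37.0 CPM. The highest value was that of granule-rich G1 cells, at 88.9 CPM (81.4 to 96.9), where 33.4% (29.7 to 37.2) of the 644 cells were positive at 5000 UMIs. The lowest was that of granule-poor G2/M cells, at 4.27 CPM (3.35 to 5.37). Stra8 differed in one respect, since its granule-rich excess was not seen in G2/M. It stood at 16.3 CPM in granule-rich G1 cells, 5.86 in S and 0.625 in G2/M, the last from 4 counts.

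**Figure D3:**
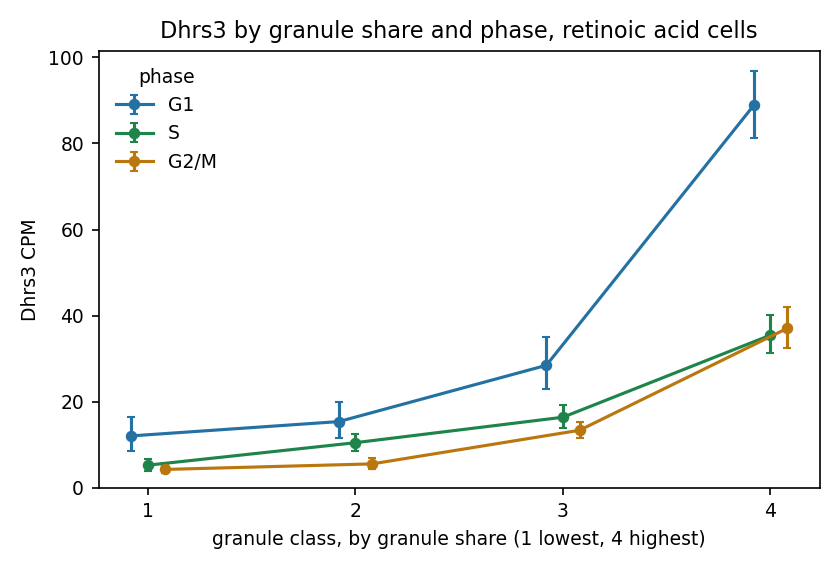
Dhrs3 CPM in the 12 combinations of granule class and cell cycle phase in the retinoic acid library, with exact Poisson intervals for counting error. In each phase the level climbs from class 1 to class 4, reaching 88.9 in G1.

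The libraries differed in how many cells stood in each phase and, far more, in granule share. The members were therefore also compared within phases and within ranges of granule share. Within a phase the contrast held. The log2 ratio of retinoic acid over vehicle in G1, S and G2/M cells was 3.55, 4.07 and 3.89 for Dhrs3, 4.79, 4.69 and 5.16 for Cyp26a1, and -1.77, -1.62 and -1.86 for Stra8. For Rdh10 it was 0.06, -0.32 and -0.34, and each interval included 0.

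A comparison within equal ranges of granule share was chosen after the data were seen. Dhrs3 was higher under retinoic acid in cells with a share below 1% and was not higher above it. Below 1% the ranges did not equalize the share itself. The median share was 0.02% in vehicle and 0.06% in retinoic acid cells below 0.1%, and 0.16% and 0.44% from 0.1 to 1%. In the higher ranges the medians were 2.23% and 2.18%, and 9.81% and 10.5%. The part of these unequal medians in the Dhrs3 difference below 1% was not tested. Below a share of 0.1% Dhrs3 stood at 1.16 CPM (0.938 to 1.41) in 4421 vehicle cells and 2.89 CPM (1.32 to 5.49) in 154 retinoic acid cells. From 0.1 to 1% it stood at 1.74 CPM (1.11 to 2.62) in 757 vehicle cells and 6.07 CPM (5.35 to 6.86) in 2252 retinoic acid cells. From 1 to 5% the order turned, with 20.3 CPM (12.9 to 30.5) in 70 vehicle cells and 12.99 CPM (11.9 to 14.2) in 2312 retinoic acid cells, intervals that overlap. Of these cells 40% in the vehicle and 83.3% under retinoic acid were called cycling, so phase was not held. At 5% and over Dhrs3 stood at 134 CPM (97.7 to 179) in 34 vehicle cells and 46.8 CPM (44.1 to 49.6) in 1941 retinoic acid cells. The log2 ratios over these ranges were 1.39, 1.77, -0.67 and -1.53.

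The high vehicle value rests on 45 counts in 19 of the 34 cells, and 1 cell held 12 of them. Without that cell it was 100.4 CPM. Those vehicle cells were mostly in G1, with 8.82% called cycling against 64.7% of the retinoic acid cells in that range. Among G1 cells alone the levels were 132 CPM (94.3 to 180) in 31 vehicle cells and 84.9 CPM (77.8 to 92.4) in 686 retinoic acid cells. Without the top cell of each they were 94.7 and 83.9 CPM. Across the vehicle library, the 104 cells with a granule share of at least 1% were 1.97% of cells and held 68 of 188 Dhrs3 counts (36.2%), at 46.3 CPM against 1.24 CPM in the other cells. Free RNA in droplets adds granule UMIs to cells that did not make them, and its part in where a cell falls in these ranges was not tested.

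Stra8 behaved differently from Dhrs3 in these ranges, while Cyp26a1 had too few vehicle counts to tell. Cyp26a1 had 4, 1, 1 and 1 vehicle counts over the ranges against 4, 51, 76 and 113 retinoic acid counts. The log2 ratio was 4.75 (2.33 to 7.18) and 3.43 (1.46 to 9.33) in the lower ranges, and 0.54 (-1.40 to 6.44) and 0.10 (-1.83 to 5.99) in the higher ones. With 1 vehicle count each, a Cyp26a1 difference was not detectable at this depth in cells with a granule share of 1% or more. Stra8 was lower under retinoic acid in every range, with log2 ratios of -2.70, -3.92, -4.05 and -3.83. Phase was not held in these ratios, and Stra8 was highest in G1 in both libraries. From the lowest range up, 51.6, 45.8, 40 and 8.82% of vehicle cells were called cycling. Among retinoic acid cells these shares were 85.1, 84.5, 83.3 and 64.7%. At 5% and over the Stra8 levels were 86.3 CPM (57.8 to 124) in the vehicle and 6.14 CPM (5.18 to 7.22) under retinoic acid. Among G1 cells of that range they were closer, at 92.4 CPM (61.4 to 134) and 15.5 CPM (12.6 to 18.9).

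**Figure D4:**
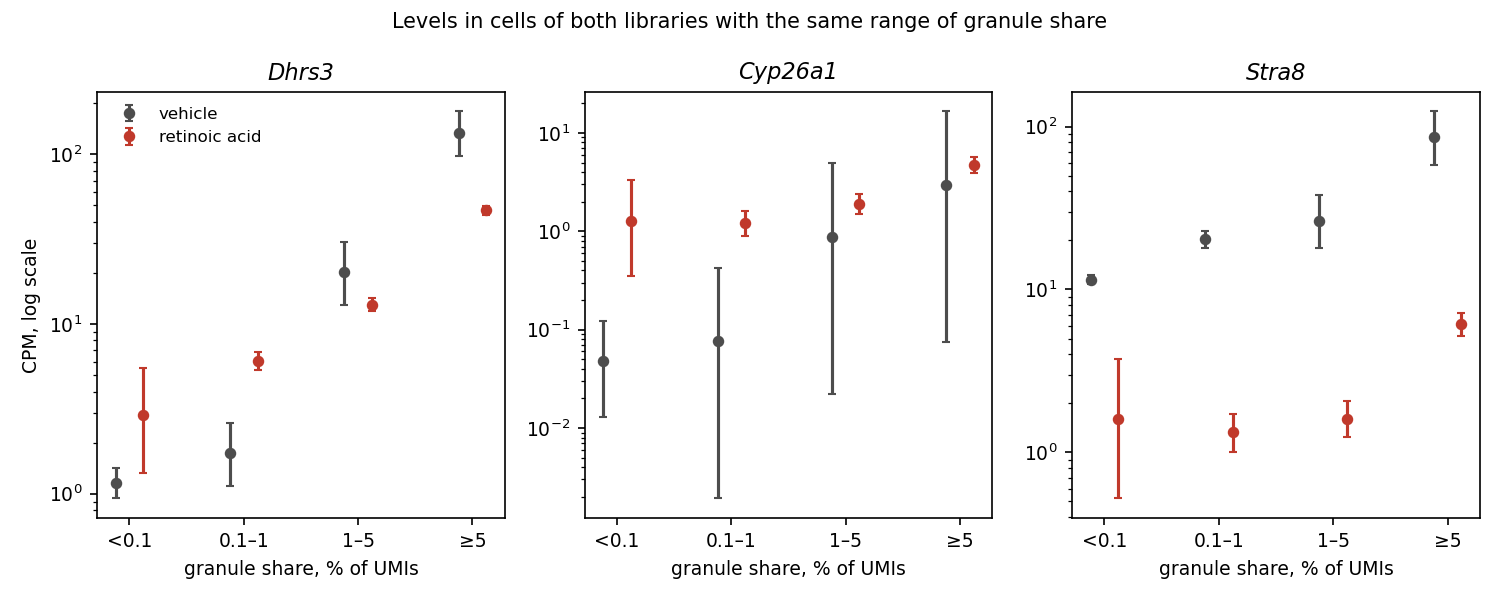
CPM of Dhrs3, Cyp26a1 and Stra8, on log axes, in vehicle and retinoic acid cells within the same ranges of granule share, with exact Poisson intervals for counting error. Dhrs3 is higher under retinoic acid below 1% and lower at 5% and over, and Stra8 is lower in all 4 ranges. Median granule share below 1%, and phase in every range, were not equal between the libraries.

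Stra8 was not spread evenly over vehicle cells. Vehicle cells were divided by whether 5000 UMIs held a UMI of Cpa3, a mast cell protease, or of Mpo. Stra8 stood at 18.6 CPM (17.4 to 19.9) in 2556 cells with Cpa3 only, 4.29 CPM (3.25 to 5.56) in 620 cells with Mpo only, 10.1 CPM (8.37 to 12.1) in 541 cells with both and 9.87 CPM (8.75 to 11.1) in 1565 cells with neither. The log2 ratio of Cpa3 only over Mpo only was 2.10 (1.73 to 2.53), while the cells with both and those with neither did not differ beyond their intervals. G1 cells were 64.2% of the Cpa3 only and 23.9% of the Mpo only cells, and the part of phase in this order was not tested. The level in Mpo only cells lay above the 2.72 CPM of the retinoic acid library. Vehicle cells with a Stra8 UMI carried mast cell or basophil markers at 1206 CPM against 731 CPM in those without, and eosinophil markers at 237 against 99.97 CPM. Both lists also stood lower in the retinoic acid library, and their part in the Stra8 difference was not tested. Cpa3 gave 570 of the 806 CPM of the mast cell or basophil list in the vehicle. The sum of that list is therefore not independent of the division by Cpa3.

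Rdh10 was near 2 to 3 CPM in each of these vehicle sets, from 2.06 in Cpa3 only to 2.91 in cells with neither. Dhrs3 was highest in the cells with neither gene, at 3.43 CPM (2.79 to 4.17), against 1.46 with Cpa3 only, 1.20 with Mpo only and 0.679 with both. The sets were not matched for granule share, and its part in this order was not tested. The 13 vehicle cells with an Asb2 UMI stood apart in their markers. They carried mast cell or basophil markers at 4979 CPM against 801 CPM in other vehicle cells, eosinophil markers at 830 against 121 CPM, and promyelocyte markers at 1326 against 8418 CPM, at a median depth of 9669 UMIs. The lower sums of those lists under retinoic acid accompany the loss of Asb2 counts, and their part in it was not tested.

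**Figure D5:**
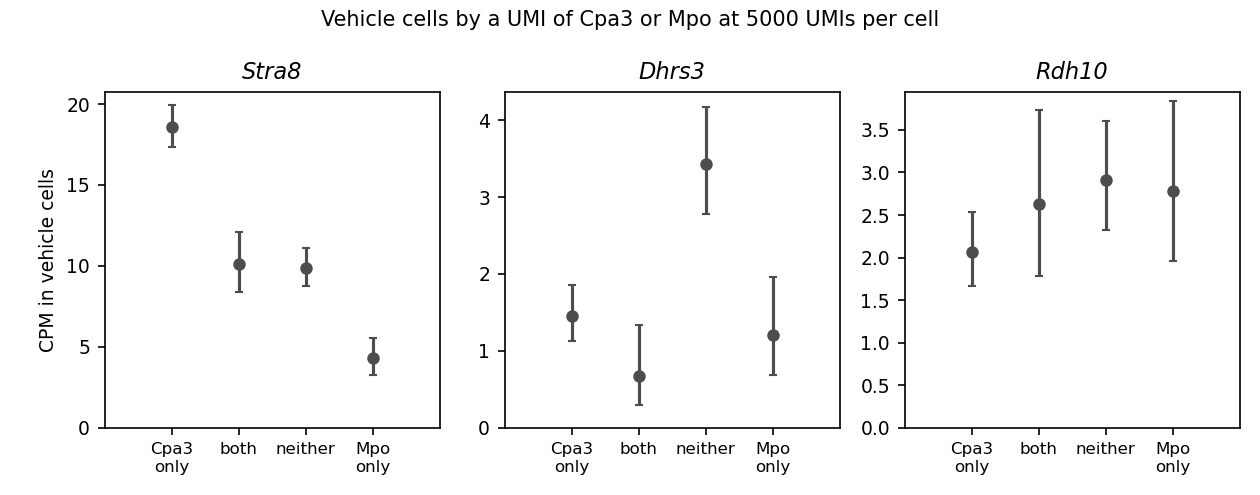
CPM of Stra8, Dhrs3 and Rdh10 in vehicle cells with a UMI of Cpa3 only, of Mpo only, of both or of neither, with exact Poisson intervals for counting error. Stra8 is highest with Cpa3 only, at 18.6, and lowest with Mpo only, at 4.29, while Rdh10 stays between 2.06 and 2.91.

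Overlap in the same treated cells was examined for 4 pairs of members. At 5000 UMIs per cell, Dhrs3 was found in 15 of 74 cells with a Cyp26a1 UMI (20.3%, 11.8 to 31.2) and in 9.48% (8.78 to 10.2) of the 6585 cells without one. It was found in 29 of 96 cells with a Stra8 UMI (30.2%, 21.3 to 40.4) and in 9.29% (8.60 to 10.0) of the rest. Of cells with an Rdh10 UMI, 7 of 67 were positive for Dhrs3 (10.4%, 4.30 to 20.3), against 9.59% of the rest. Stra8 was found in 7 of 74 cells with a Cyp26a1 UMI (9.46%, 3.89 to 18.5) and in 1.35% (1.09 to 1.66) of the cells without one. The median granule share was 8.03% in cells with Cyp26a1 and 12.8% in cells with Stra8, against 1.80% in the cells without the respective gene. The part of the granule share in these overlaps was not tested. Before thinning, Dhrs3 was found in 28% of 200 cells with Cyp26a1 and in 20.4% of those without, a smaller difference. For cells with and without Stra8 the Dhrs3 shares were then 33.2% and 20.2%, and for Rdh10 18.6% and 20.7%. Stra8 was then found in 9% of cells with Cyp26a1 and 3.26% of those without. Cells of 1 library are not replicates, and no test was made.

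Other genes of the retinoid pathway are counted here against the 5.72% of all measured genes that were at least 2-fold higher, the 15.0% that were at least 2-fold lower and the median log2 ratio of -0.08. Of 19 genes for retinoid synthesis, 10 had at least 10 counts, 1 was higher and 1 lower by that measure, which with so few genes is near those shares. The higher gene was Rdh12, a retinal reductase like Dhrs3, whose reaction is the reverse of a step of synthesis. Rdh12 had 326 vehicle and 1989 retinoic acid counts, a log2 ratio of 2.46 (2.29 to 2.63). Bco1, which cleaves carotene to retinal, had 680 and 260 counts, a log2 ratio of -1.54 (-1.75 to -1.33). Of the enzymes that make retinoic acid from retinal, Aldh1a1 had 1 and 2 counts, Aldh1a2 had 1 and 0, and Aldh1a3 had 9 and 12, so none was well measured. Adh5 and Rdh5 had log2 ratios of -0.22 and -0.15, and the median over the 10 genes was -0.01.

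Of 9 genes for retinoid storage and breakdown, 5 were measured and 2 were at least 2-fold higher, against 5.72% of all genes. Dgat1, which can esterify retinol, had a log2 ratio of 1.07, and Ces1d, a carboxylesterase, of 1.29. Retsat, a retinol saturase, had 0.51, and the lipases Lipe and Pnpla2 had -0.65 and -0.84. Lrat, the main retinol-esterifying enzyme of other tissues, had 0 counts in both libraries. Among 9 binding and transport genes, Fabp5, which can deliver retinoic acid to a different nuclear receptor, was the one measured, with 84 and 25 counts and a log2 ratio of -1.88 (-2.61 to -1.24).

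Of 6 retinoid receptor genes, 4 were measured, and Rara at -2.48 (-2.70 to -2.27) and Rxra at -1.54 (-1.67 to -1.41) were at least 2-fold lower, against 15.0% of all genes. Rarg and Rxrb had log2 ratios of 0.13 and -0.01. How reads of the fusion transcript were counted is not given in the sources used here, so Rara counts may include them. Of 32 further genes often listed as retinoic acid targets, 31 were in the files and 25 measured. Of these 25, 6 were at least 2-fold higher, against 5.72% of all genes, and 4 were lower. Their median log2 ratio was 0.64, against -0.08 over all genes. This list, like the others, was chosen with earlier results of these data known, so these counts only describe it. The 4 lower genes are near the 15.0% of all genes. The widest differences were those of Pram1, an adaptor named for its regulation by a RARA fusion, with 60 and 790 counts (3.56), the transcription factor Ets2 (1.51), the corepressor Nrip1 (-1.57), the integrin gene Itgax (-3.56, from 26 and 2 counts) and the immediate early gene Egr1 (-4.04, from 200 and 13 counts).

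Some of these genes shared the granule-rich placement of Dhrs3 in the retinoic acid library. Pram1 stood at 0.601, 1.94, 4.67 and 27.2 CPM over classes 1 to 4, a log2 ratio of 5.46 (4.84 to 6.24). From class 1 to class 4, Dgat1 went from 26.4 to 114 CPM (2.11), Rdh12 from 9.40 to 32.0 CPM (1.77) and Ces1d from 26.6 to 60.2 CPM (1.18). Retsat and Bco1 ran the other way, from 72.1 to 29.2 CPM (-1.30) and from 2.40 to 0.818 CPM (-1.52).

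Likeness of pattern was measured as Pearson's r of log2(CPM + 1) over the combinations of phase and granule class, as a description of 1 library. Among 5132 genes with at least 20 CPM in the retinoic acid library, those most like Dhrs3 over 12 combinations were Cebpe (0.991), a transcription factor of granulocyte maturation, Wipi1 (0.987), Ncf1 (0.987), a subunit of the phagocyte oxidase, Prdx5 (0.982) and Rhou (0.982). Between the libraries these genes differed from one another, with a log2 ratio of -0.16 for Cebpe and 3.56 for Ncf1. In the vehicle library, the genes most like Stra8 over 9 combinations with enough cells, among 5173, were Nfkbia (0.995), an inhibitor of NF-κB, Camk1 (0.990), Sh3bgrl3 (0.987), S100a6 (0.987) and Ltb (0.986). The granule class limits in that library were 0, 0.02 and 0.06%, so its classes are set apart by very few granule UMIs. The part of phase alone in the likeness to Stra8 was not tested. The combinations share cells' depth and library, and no p-value is given.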

How the data were processed

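Per the file headers, Cell Ranger 4.0.0 wrote the raw UMI counts that the authors deposited as 1 matrix per library. Builds mm10 and GRCm38.p4 are named in the submitters' processing notes. The counts were not normalised, and coordinates are GRCm38 positions from GENCODE M21, which held 32158 of the 32285 identifiers. The 9 genes and all lists were chosen with earlier results of these data known. Counts were summed per library or class with Python 3.11.15, numpy 2.4.6 and scanpy 1.11.5. Log2 ratios add 0.5 counts to each sum and carry exact conditional binomial intervals, sums exact Poisson and shares Clopper-Pearson intervals. With 1 library per group no test was made. A gene was measured at 10 or more counts over both libraries and called at a 2-fold ratio, or at 100 or more counts for classes. Genes named beyond the members were the 5 widest ratios of each list and, for members with at least 500 counts in a library, the 5 most alike genes. Aldh1a1, Aldh1a2 and Lrat fall outside this rule and were named after their values were seen. The 4 granule classes could not be formed in the vehicle, where many cells had 0 granule UMIs, so likeness there used 9 combinations. The 3 genes under 10 counts were left out of calls. Scrublet called 2 vehicle and 5 retinoic acid cells doublets, which is too few for the caller to have worked, and none was removed. The ratio calculation was tested on simulated data. Alternatives included TMM scaling with edgeR 4.0.16 in R 4.3.3, other depths, filters and class limits.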

Additional observations from a re-analysis of the deposited data

How the results depend on the processing

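Of 161 alternative values, 112 were labelled the same as the reported ones, 45 moved and 4 reversed. The last label does not take in every change of sign. The Rdh10 ratio went from -0.14 to 0.65 below a granule share of 0.1% and was labelled moved. No paired analysis was possible because only 1 library stood behind a group. With every cell weighted equally the Stra8 ratio was -1.86. With 100 or more counts 1 member was at least 2-fold lower (10.2% of genes) and 2 were higher (4.30%), and with 1 or more counts 4 were lower (21.3%). The granule-rich over granule-poor ratio of Dhrs3 was 2.87 with 3 granule classes in place of 4, 2.86 within G1 and 2.74 within S. Its cycling over G1 ratio was -1.19 with cycling taken as the upper 50% by S and G2/M gene share, and -1.38, -1.02, -0.98 and -1.30 within granule classes 1 to 4. That of Cyp26a1 turned to 0.16 by that definition and was -0.20, -0.013 and -0.19 within granule classes 1, 2 and 4. The Stra8 granule-rich over granule-poor ratio was -1.09 within G2/M. By granule share, an alternative chosen after the data were seen, the ratios from the lowest range up were 1.39, 1.77, -0.67 and -1.53 for Dhrs3 and -2.70, -3.92, -4.05 and -3.83 for Stra8, all different from the whole-library values. Rdh10 had 0.65, 0.17 and -0.55 in the lower 3 ranges, and Cyp26a1 had 3.43, 0.54 and 0.10 in the upper 3. Apart from these alternatives' own construction, the cause was not tested. Depth limits Cyp26b1, Crabp2, Tgm2 and Cd38, whose sums were 12 counts or fewer, and Cyp26a1 in the vehicle.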

Other observations

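The repeat of hexamers found in the Cyp26a1 window stood in windows of 31 genes. Of these, 6 had at least 10 counts over both libraries, with a median log2 ratio of 0.02. Cyp26a1 was the one at least 2-fold higher under retinoic acid, and 1 gene was at least 2-fold lower, against 5.72% and 15.0% of all measured genes.

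The barcodes removed by the filters held few member counts. In the 276 removed retinoic acid barcodes Dhrs3 had 9 counts, or 25.3 CPM, and in the 310 removed vehicle barcodes it had 2 counts, or 3.5 CPM.

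The treated cell with the most Cyp26a1, at 7 UMIs, was called G2/M and had a granule share of 13.6%. The treated cell with the most Stra8, at 9 UMIs, was called G1 and had a granule share of 9.96%.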
